A study of Mus musculus with 18 samples.

Results

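The granzymes and perforin are the cargo of the cytotoxic granule of killer lymphocytes. The gene set was every row of the deposited count table whose symbol was Gzma, Gzmb, Gzmc, Gzmd, Gzme, Gzmf, Gzmk, Gzmm or Prf1, which gave 9 of 46073 genes, 8 granzymes and perforin (Prf1). Of these, 7 were among the 18447 genes that passed the filter on low counts. Gzmd and Gzme did not pass it and are given by their counts.

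Perforin is released with the granzymes towards a bound target cell and forms pores through which the granzymes, a family of serine proteases, enter the cytosol. Granzyme B cuts after aspartate and can start the caspase cascade, granzymes A and K cut after arginine or lysine, and granzyme M cuts after methionine or leucine. In graft-versus-host disease, perforin and granzymes are among the routes by which donor T cells are known to damage the tissues of the recipient.

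RNA was measured by total RNA sequencing in donor T cells of mouse spleen on day 7 after haematopoietic stem cell transplantation, in 4 groups of 3 libraries. Donor T cells were either wild type (WT) or lacked Wapl (KO), the factor that releases the DNA-holding ring complex cohesin from chromosomes. Syngeneic recipients were B6.SJL-Ptprca Pepcb/BoyJ mice given 9.5 Gy and splenic T cells, whose number was taken as 8500000. The labels give this T cell number as 8.5 without its own exponent, so the exponent is an assumption. Allogeneic recipients, whose tissue antigens the donor cells meet as foreign, were CByJ.SJL(B6)-Ptprca/J mice given 8 Gy and 1000000 T cells. All recipients also received 5000000 marrow cells depleted of T cells, and were 8 to 12 weeks old. Recipients carried the CD45.1 form of the leukocyte marker CD45 and donors the CD45.2 form. The named donors were female C57BL/6 mice of the same age, and neither the sex of the KO donors nor the Cre line is given. Spleens of 2 to 4 mice were pooled per library, and live CD3+ CD45.2+ cells were sorted. Recipient strain, radiation dose and T cell number all differed with the type of transplant, so they cannot be told apart from it. Syngeneic KO libraries carry the name of the allogeneic recipient strain in the label for cell type, and were grouped by their label for transplant type.

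Library totals ran from 45965659 to 89007100 counts. Cd3e, part of the T cell receptor complex, was present in every group, with means from 403 to 634 CPM (counts scaled to a common library size with edgeR's TMM factors). Wapl itself (table symbol Wapal) stood at 170 to 211 CPM in syngeneic WT libraries against 127 to 139 in KO, and at 156 to 169 in allogeneic WT libraries against 124 to 151 in KO, and the deleted exons are not named in the labels. Summed over 4 Y-linked genes, WT libraries had 0.733 to 1.75 CPM and KO libraries 31.4 to 138, so donor sex cannot be told apart from genotype. Syngeneic KO replicate 1 stood apart from the rest, with the highest share of ribosomal RNA counts (32.1%) and the lowest TMM factor (0.773). That share was higher in syngeneic than in allogeneic libraries without overlap, at 20.2 to 23.1% against 8.27 to 17.8% in WT and 24.0 to 32.1% against 16.9 ± 0.996% (SD, n = 3) in KO. Syngeneic KO also lay above syngeneic WT, and the part of ribosomal RNA content in the results below was not tested beyond leaving out the ribosomal RNA genes, which changed no call of a member. In bulk RNA, more cells that express a gene and more RNA per cell cannot be told apart. The p-values below measure the spread between pooled libraries.

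On the mouse build GRCm38 the genes lie at 4 places. Gzma (chromosome 13, 113093825 to 113100981) and Gzmk (113171608 to 113225908) are neighbours on the minus strand. Gzmb (chromosome 14, 56258838 to 56262260), Gzmc (56231441 to 56234656), Gzmf (56205263 to 56211417), Gzmd (56129556 to 56132608) and Gzme (56117626 to 56120625) form a cluster on the minus strand. Gzmm (79689020 to 79695261) and Prf1 (61297833 to 61304680) lie far apart on the plus strand of chromosome 10. Sequences of 50 bases were shared within the chromosome 14 cluster: 21.9% of those in Gzmd, 20.6% in Gzme, 7.36% in Gzmf and 4.14% in Gzmc also occur in another gene, so the counts of these 4 are uncertain, and most of all where a low gene shares sequence with a higher one. The other 5 members shared none. The end of Gzmf shares 151 exon bases with the antisense gene Gm4022. Esm1 (113209659 to 113218098) lies on the opposite strand inside the GENCODE span of Gzmk with 0 exon bases shared. By the RefSeq start used below, which has its upstream window at 113180966 to 113181215, Esm1 lies outside Gzmk. Whether the counting used strand is not given in the sources used here.

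The 250 bases before the RefSeq start site (GRCm38.p6) are shown for the 3 members of highest RNA level per kb after allogeneic transplantation, Gzmb, Gzma and Prf1, and for Gzmm, which moved the other way and was added after its values were seen. Capitals mark matches, on either strand, to the letters TGTGGT (Runx core), TCACACC (T-box), TGANTCA (AP-1), TGACG (cyclic AMP response element core), TTCNNNGAA (STAT) or GGAAA (NFAT core). No matches overlap in these 4 windows.
Gzmb (chr14:56262335-56262584, minus strand): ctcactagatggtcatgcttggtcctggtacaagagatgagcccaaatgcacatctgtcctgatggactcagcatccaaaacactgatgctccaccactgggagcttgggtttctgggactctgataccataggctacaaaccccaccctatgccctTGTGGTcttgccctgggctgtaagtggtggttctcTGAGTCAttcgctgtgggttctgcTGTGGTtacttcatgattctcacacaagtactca
Gzma (chr13:113100982-113101231, minus strand): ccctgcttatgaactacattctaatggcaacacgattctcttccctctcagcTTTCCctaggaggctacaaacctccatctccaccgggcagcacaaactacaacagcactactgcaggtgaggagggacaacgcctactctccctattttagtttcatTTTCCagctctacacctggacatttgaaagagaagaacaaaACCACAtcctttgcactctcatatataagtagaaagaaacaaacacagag
Prf1 (chr10:61297586-61297835, plus strand): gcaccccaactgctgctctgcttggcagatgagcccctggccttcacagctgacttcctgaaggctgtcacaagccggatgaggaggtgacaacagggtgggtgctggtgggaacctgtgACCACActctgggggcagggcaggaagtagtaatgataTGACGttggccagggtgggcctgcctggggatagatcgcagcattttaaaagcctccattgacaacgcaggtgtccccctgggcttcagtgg
Gzmm (chr10:79688770-79689019, plus strand): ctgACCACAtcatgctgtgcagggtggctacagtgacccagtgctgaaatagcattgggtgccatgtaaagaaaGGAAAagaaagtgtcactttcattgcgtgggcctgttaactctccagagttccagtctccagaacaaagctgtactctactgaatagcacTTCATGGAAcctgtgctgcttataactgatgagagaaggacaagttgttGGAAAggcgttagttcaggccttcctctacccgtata

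The Runx core letters occurred in the first RefSeq window of 8 of the 9 members, all but Gzmk, against 14% of 32851 mouse windows of this length. Gzmb held them at 93 and 34 bases before the start, Gzma at 50, Prf1 at 130 and Gzmm at 247 (counted to the first base of the match). Gzmc, Gzmd, Gzme and Gzmf, which are near copies of each other, held 2 each. Gzmb also held the AP-1 letters at 58 bases before the start (6.75% of windows) and Gzmm the STAT letters at 86 (7.02%). Gzmk had the T-box letters at 75 bases before the start (3.33% of windows). Prf1 held the cyclic AMP response element core at 92 (17.8%), Gzmc at 57 and 54, and Gzmf at 82 and 79. The NFAT core letters stood in 55.6% of all windows, and in Gzma, Gzmd, Gzme, Gzmf and Gzmm among the members. For Gzmb, Gzmc, Gzmk and Prf1, the bases just after the RefSeq start were not found in the first part of a GENCODE transcript of the gene. Exact start positions were not compared. A match of letters is a description of the window and not a measured binding site.

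The comparison of allogeneic with syngeneic libraries asked how the granule genes of donor T cells stood where the recipient's tissue was foreign. Perforin and 5 granzymes were higher in allogeneic libraries of both genotypes, Gzma by over 50-fold, while Gzmm was lower. All 7 tested members were called by edgeR's quasi-likelihood test at an adjusted p under 0.05 in WT, 6 higher and 1 lower, where 32.3% of all tested genes were called (16.4% higher and 15.9% lower). In KO the count was also 6 higher and 1 lower, where 24.4% were called (13.2% higher and 11.2% lower). The 2 groups did not overlap for any of the 7, while over all tested genes 28.2% were higher and 27.5% lower with no overlap in WT, and 17.0% and 16.6% in KO. The median log2 fold change of the 7 was 3.81 in WT and 3.47 in KO, against -0.03 and -0.02 over all tested genes.

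**Figure D1:**
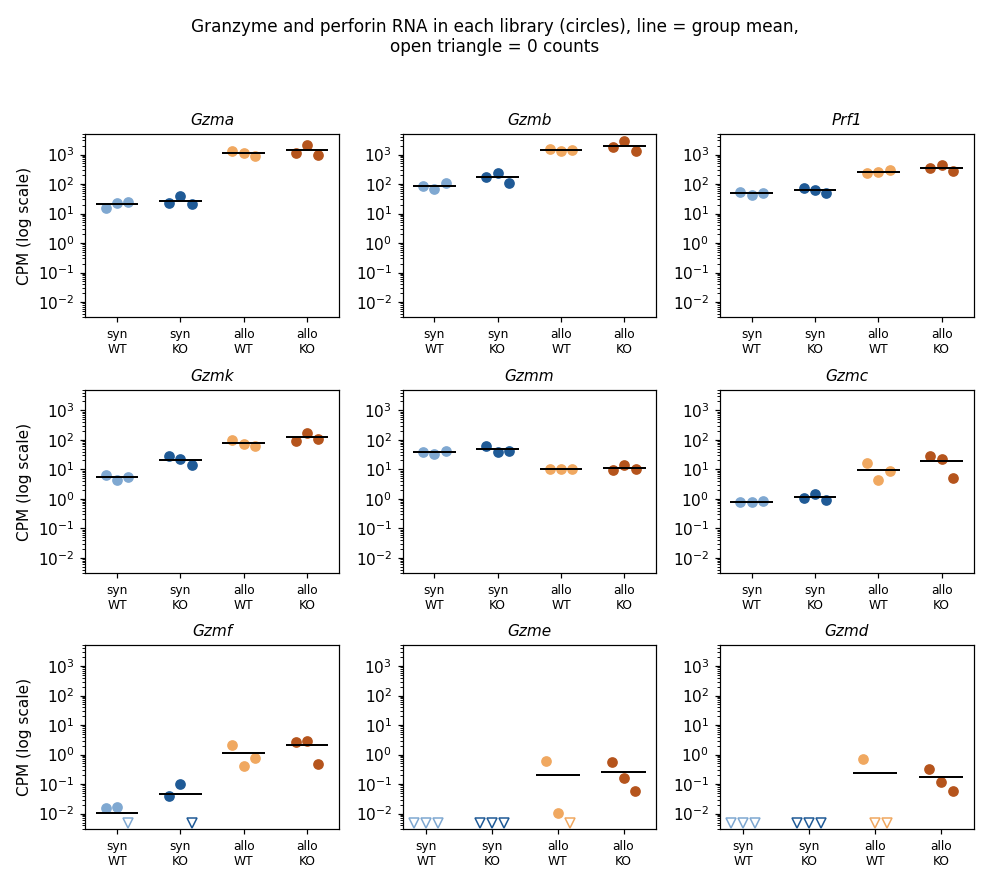
Expression of the 9 genes in each library on a log axis of CPM, by group (syn, syngeneic; allo, allogeneic; WT; KO), with 3 libraries per group as circles, the group mean as a line and libraries with 0 counts as open triangles. Gzma in allogeneic libraries sat between 899 and 2169 CPM against 15.5 to 39.0 in syngeneic ones, and Gzmm ran the other way, at 9.36 to 14.2 against 32.6 to 64.1.

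Prf1, the pore former, was at 55.2, 41.0 and 49.5 CPM in syngeneic WT replicates 1 to 3 and at 71.2, 61.0 and 48.9 in syngeneic KO. In allogeneic WT it was at 246, 256 and 291 CPM, and in allogeneic KO at 344, 436 and 275. Every allogeneic library was above every syngeneic one. The log2 fold change was 2.44 ± 0.19 (SE, adjusted p = 1.31e-06) in WT and 2.54 ± 0.19 (adjusted p = 1.40e-06) in KO, that is 5.44-fold and 5.83-fold.

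Gzma, the tryptase-like granzyme best known for killing without caspases, stood at 15.5, 22.7 and 24.0 CPM in syngeneic WT and 22.1, 39.0 and 21.2 in syngeneic KO. Its values were 1342, 1166 and 899 CPM in allogeneic WT and 1092, 2169 and 976 in allogeneic KO. The lowest allogeneic library was far above the highest syngeneic one, and allogeneic KO replicate 2 was the highest of all. In WT, Gzma rose by 5.78 ± 0.39 on the log2 scale (adjusted p = 6.58e-07), and in KO by 5.69 ± 0.39 (adjusted p = 9.71e-07), 54.8-fold and 51.5-fold. By size of fold change it ranked 32nd from the top in WT and 42nd in KO.

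Gzmk, the other tryptase-like granzyme, was at 6.43, 4.43 and 5.49 CPM in syngeneic WT and 27.8, 22.4 and 13.8 in syngeneic KO. After allogeneic transplantation it stood at 95.6, 74.1 and 60.2 CPM in WT and 92.7, 170 and 109 in KO. Syngeneic WT was lowest, then syngeneic KO, and the 2 allogeneic groups, which overlapped each other, were highest. The log2 fold change of allogeneic over syngeneic was 3.81 ± 0.31 in WT (adjusted p = 2.83e-06), while it was 2.54 ± 0.29 among KO libraries (adjusted p = 5.53e-05).

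Gzmb, the granzyme that activates caspases, was at 84.8, 67.1 and 111 CPM in syngeneic WT and at 178, 241 and 112 in syngeneic KO. It reached 1508, 1333 and 1442 CPM in allogeneic WT and 1842, 2773 and 1277 in allogeneic KO. No syngeneic library came near an allogeneic one. Gzmb rose by 4.03 ± 0.34 on the log2 scale in WT (adjusted p = 3.02e-06) and, with KO donors, by 3.47 ± 0.33 (adjusted p = 1.22e-05), 16.3-fold and 11.1-fold.

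The remaining genes of the Gzmb cluster, which encode granzymes found mainly in rodents and known from strongly stimulated T cells, were low throughout. Gzmc was at 0.762 to 0.835 CPM in syngeneic WT and 0.892 to 1.44 in syngeneic KO. In allogeneic libraries it was at 16.3, 4.20 and 8.86 CPM in WT and 27.9, 23.0 and 5.14 in KO. The 3 allogeneic libraries of a genotype differed by up to 3.88 times in WT and 5.43 times in KO, and all were above the syngeneic ones. Gzmc rose by 3.61 ± 0.64 on the log2 scale in WT (adjusted p = 0.00147) and, with KO donors, by 4.03 ± 0.64 (adjusted p = 0.00100).

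Gzmf had 1, 1 and 0 counts in syngeneic WT and 2, 6 and 0 in syngeneic KO, against 121, 41 and 45 in allogeneic WT and 115, 178 and 34 in allogeneic KO. Every allogeneic library had more counts than every syngeneic one. The depth-scaled ratio of the group sums was 87.3 in WT (exact 95% counting interval 23.9 to 726) and 37.7 in KO (18.9 to 88.1), which covers counting error only. Gzmf was called in both genotypes (edgeR adjusted p = 0.00127 and 0.00171), and its fitted fold change depends on the prior count.

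Gzme had 0 counts in all 6 syngeneic libraries, 36, 1 and 0 in allogeneic WT and 24, 10 and 4 in allogeneic KO. Gzmd also had 0 counts in all syngeneic libraries, 41, 0 and 0 in allogeneic WT and 14, 7 and 4 in allogeneic KO. In allogeneic WT nearly all counts of both genes came from replicate 1, and that library also had the highest Gzmc and Gzmf of its group. Against a floor of 3 counts over the syngeneic group, the group sum of Gzme was at least 10.4-fold higher in WT and 11.7-fold in KO, and that of Gzmd at least 11.5-fold and 7.69-fold. Of the 50-base sequences of Gzmc, 3.79% also occur in Gzme, and allogeneic WT replicate 1 had 939 counts of Gzmc beside its 36 of Gzme, so these bounds hold for counts assigned to a gene, and the part of shared sequence in them was not tested. Gzmg and Gzmn, the other granzyme genes of the cluster, had 1 and 0 counts over the 12 libraries.

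Gzmm, the granzyme that cuts after methionine or leucine, was the member that fell. It was at 39.8, 32.6 and 41.7 CPM in syngeneic WT and 64.1, 38.3 and 42.0 in syngeneic KO, against 10.1, 9.93 and 10.3 in allogeneic WT and 9.36, 14.2 and 9.97 in allogeneic KO. All 6 allogeneic libraries were below all 6 syngeneic ones. Its log2 fold change was -1.91 ± 0.21 in WT (adjusted p = 1.99e-05) and, with KO donors, -2.10 ± 0.21 (adjusted p = 1.33e-05).

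**Figure D2:**
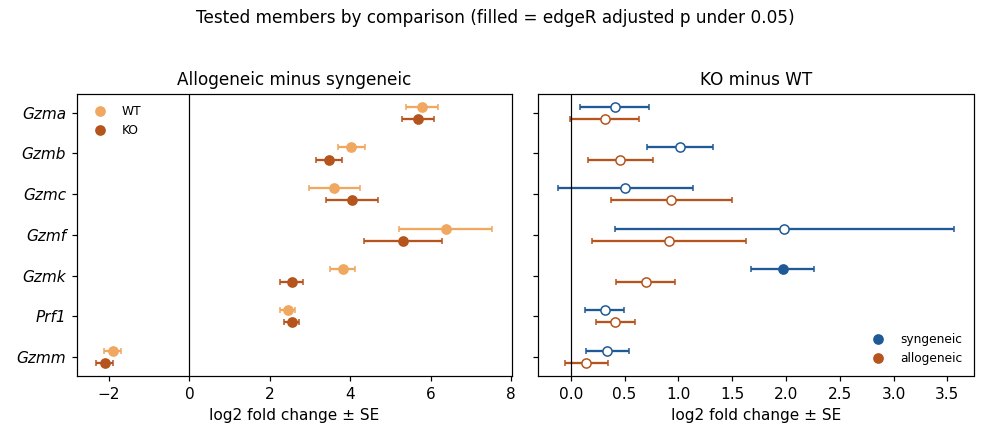
Log2 fold changes ± SE from edgeR for the 7 tested members, allogeneic minus syngeneic within each genotype (left) and KO minus WT within each transplant type (right), with filled circles for an adjusted p under 0.05. On the left all 14 values are filled and Gzmm alone is below 0, and on the right only Gzmk in syngeneic libraries is filled.

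Expressed per kilobase of annotated exon, which allows levels of different genes to be compared, the make-up of the granzyme RNA also differed. The summed level of the 8 granzymes was 107, 95.5 and 134 CPM per kb in syngeneic WT replicates 1 to 3 and 211, 251 and 139 in the KO libraries of that transplant. After allogeneic transplantation it was 2482, 2152 and 1959 in WT and 2477, 4248 and 1952 in KO, all above every syngeneic library. Granzyme counts made up 0.0160% and 0.0257% of all counts in the WT and KO libraries of syngeneic recipients and 0.282% and 0.333% in those of allogeneic recipients. The allogeneic sum was 16.7-fold higher (log2 difference 4.06) by an exact two-sided permutation test within genotype, p = 0.005, the smallest its 400 arrangements allow, and adjusted p = 0.045 over 54 such tests of composition. Within a single genotype, 3 against 3 libraries cannot give an exact p below 0.1.

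In syngeneic WT, Gzmb made up 53.9 ± 4.40% of the summed granzyme level per kb, Gzmm 23.2 ± 2.06%, Gzma 18.6 ± 4.64% and Gzmk 3.54 ± 0.710% (SD, n = 3). In allogeneic WT the shares were 45.6 ± 4.96%, 0.316 ± 0.0399%, 51.1 ± 4.73% and 2.49 ± 0.279% in the same order. Gzma thus stood beside Gzmb as the main granzyme RNA, and Gzmm was below 1%. Within genotype the share of Gzma rose by 33.4 percentage points, and those of Gzmm and Gzmk fell by 19.9 and 2.77 points (exact permutation p = 0.005 and adjusted p = 0.045 for each). The share of Gzmb differed by -10.7 points (exact permutation p = 0.01, adjusted p = 0.0675), which did not pass. Gzmc to Gzmf together held under 1% of the level in each group mean, from 0.557 to 0.824%, and their share did not pass (exact permutation p = 0.78).

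**Figure D3:**
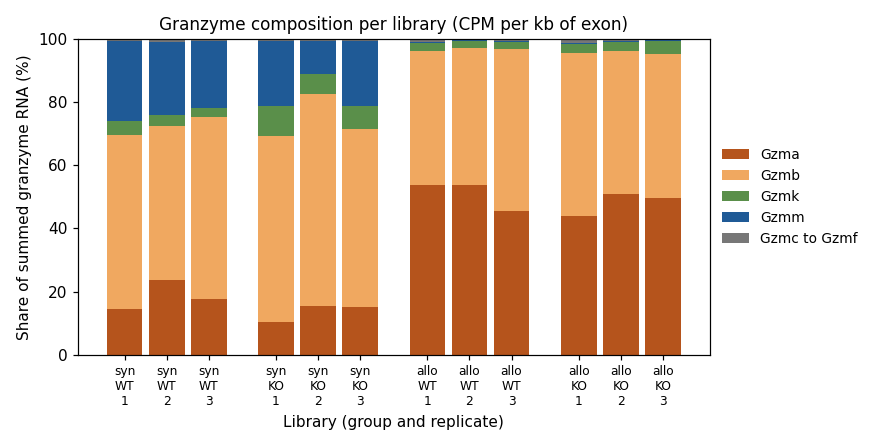
Share of the summed granzyme level (CPM per kb of exon) taken by Gzma, Gzmb, Gzmk, Gzmm and the sum of Gzmc to Gzmf in each of the 12 libraries, as stacked bars that add to 100%. Gzma held 10.4 to 23.6% in syngeneic libraries and 43.8 to 53.8% in allogeneic ones, while Gzmm held 10.4 to 25.3% and then 0.228 to 0.357%.

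The ratio of Prf1 to the summed granzymes was lower in allogeneic libraries (log2 difference within genotype -1.57, exact permutation p = 0.005, adjusted p = 0.045). Perforin RNA thus rose, and by less than granzyme RNA. Per kb, Prf1 was at 18.8 ± 2.78 CPM in syngeneic WT and 102 ± 9.15 in allogeneic WT (SD, n = 3), against 60.9 ± 15.2 and 994 ± 61.7 for Gzmb. The log2 ratio of Gzma to Gzmb went from -1.56 ± 0.46 in syngeneic WT to 0.17 ± 0.29 in allogeneic WT and from -2.17 ± 0.31 to 0.01 ± 0.22 in KO (exact permutation within genotype p = 0.005, adjusted p = 0.045).

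Some markers of cells that can carry these RNAs also moved. Cd8a, the co-receptor of most cytotoxic T cells, was at 545 ± 95.9 CPM in syngeneic WT and 353 ± 29.2 in allogeneic WT (log2 fold change -0.63 ± 0.19, adjusted p = 0.0205; 0.0884 without syngeneic WT replicate 1 and 0.0827 without allogeneic WT replicate 1). Cd8b1, the gene of the other CD8 chain, was at 464 ± 106 and 415 ± 9.64 CPM and was not called (-0.16 ± 0.22, adjusted p = 0.598). Cd4 was at 188 ± 34.6 and 396 ± 54.2 CPM (1.08 ± 0.23, adjusted p = 0.00362). In KO, edgeR called none of Cd8a (-0.49 ± 0.18, adjusted p = 0.0708), Cd8b1 (-0.01 ± 0.22, adjusted p = 0.970) and Cd4 (0.44 ± 0.23, adjusted p = 0.182). Some alternative settings called Cd8a or Cd4 in KO, among them DESeq2 for Cd8a (adjusted p = 0.0444). Relative to Cd8a per kb, Gzmb went from 0.412 ± 0.113 to 10.3 ± 1.48, Prf1 from 0.126 ± 0.00787 to 1.06 ± 0.0750 and Gzmm from 0.174 ± 0.0242 to 0.0712 ± 0.00645 in WT. Of 10 NK and NKT cell markers, 3 were called higher and 4 lower in allogeneic WT, with a summed level of 639 to 763 CPM in syngeneic WT and 1324 to 1503 in allogeneic WT. Il2rb made up most of that sum, at 697 ± 71.8 and 1348 ± 102 CPM. Besides Il2rb, the markers called higher were Klrb1c and Ncr1. Klrb1c rose from 6.09 ± 1.42 to 28.4 ± 1.99 CPM (2.22, adjusted p = 0.000190). Ncr1 rose from 0.594 ± 0.272 to 1.62 ± 0.215 CPM (1.44, adjusted p = 0.0349, and 0.0564 to 0.108 without any 1 of the 6 WT libraries). Klra8 was at 0 in allogeneic WT. Apart from this, markers of this list that were not called higher are not reported here singly, in WT or KO. In KO the counts of NK and NKT markers were also 3 higher and 4 lower, with sums of 759 to 814 and 1243 to 1454 CPM. There Klrb1c rose from 6.47 ± 0.665 to 35.1 ± 18.5 CPM (2.44, edgeR adjusted p = 0.000131). Ncr1 rose from 0.176 ± 0.0894 to 3.57 ± 2.04 CPM in KO (4.32, edgeR adjusted p = 9.94e-05). Mast cell and basophil markers summed to 5.65 to 22.2 CPM in syngeneic WT and 10.8 to 54.9 in allogeneic WT. None of 7 tested was called by edgeR or DESeq2 (2 had an unadjusted p under 0.05), and Mcpt4 was at 0 in both WT groups.

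Other cells differed with the type of transplant as well. Of 7 gamma delta T cell markers, 1 was called higher and 3 lower in allogeneic WT, with sums of 37.6 to 39.5 CPM in syngeneic WT and 17.2 to 23.5 in allogeneic WT. In KO 1 was higher and 2 lower, at 21.2 to 34.1 and 19.3 to 22.0 CPM. All 7 red cell precursor markers were lower in allogeneic WT, where they summed to 7.07 to 14.5 CPM against 1580 to 3278 in syngeneic WT. In KO 2 of these 7 were lower, at 12.4 to 50.9 and 6.12 to 10.2 CPM. Of 10 monocyte, macrophage and dendritic cell markers, 2 were higher and 6 lower in allogeneic WT while their sum went from 57.6 to 184 CPM up to 194 to 265, and in KO 3 were higher and 0 lower, at 14.8 to 50.1 and 138 to 309 CPM. The part of these cells in the granzyme values was not tested.

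The genes that flank the members were read from the annotation. Esm1, which encodes a secreted proteoglycan and lies inside the GENCODE span of Gzmk, went from 0.985 ± 0.0829 to 11.5 ± 1.95 CPM in WT (3.54, adjusted p = 1.09e-06). In KO it went from 3.03 ± 0.977 to 16.2 ± 3.39 CPM (2.42, adjusted p = 2.06e-05). Cdc20b, 2.63 kb from Gzma, rose by 3.53 and 3.81 on the log2 scale in WT and KO, at means of 0.811 CPM or less. Snx18, 366 kb beyond Gzmk, rose by 0.66 and 0.63. Adamts14, a protease gene 24.4 kb from Prf1, rose by 4.50 and 4.41, from 3.39 to 76.8 CPM in WT, and the pseudogene Rpl27a-ps1 on the other side of Prf1 was not called. Ctsg and Rnf17, on either side of the chromosome 14 cluster, were not called in either genotype, at log2 fold changes of -0.27 and 0.13 in WT. Beside Gzmm, Bsg stood at 166 and 165 CPM in WT and was not called, and Cdc34 went up by 0.59 in WT (adjusted p = 0.0373, lost when replicate 2 or 3 of syngeneic WT or replicate 1 or 3 of allogeneic WT was left out, at adjusted p of 0.0549 to 0.145).

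Likeness over the 12 libraries was measured as the root mean square difference of log2 CPM centred on each gene's mean, among 10046 other genes with a mean of at least 5 CPM. The genes nearest to Gzmb were Pdcd1, which encodes PD-1 (0.29), Tigit (0.34) and Serpinb6b (0.34). Nearest to Gzma were Serpinb9b (0.40), Gldc (0.46) and Csf1 (0.68), to Prf1 Rom1 (0.16), Gpr55 (0.16) and Sult2b1 (0.22), and to Gzmk Esm1 (0.23), 1500009L16Rik (0.38) and St14 (0.44). Gzmm, the member that fell, was most like Fgf13 (0.21), Aqp3 (0.22) and Mgst2 (0.25). For Gzmc the nearest genes were Serpinb6b (0.64), Rhoc (0.64) and Lgals7 (0.66), and for Gzmf Pdcd1 (0.83), Lgals3 (0.84) and Rasl11a (0.86), at larger distances. These are descriptions over libraries in which the type of transplant sets most of the variation.

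Genes that act with granzymes were taken from fixed lists. Serpins listed as granzyme inhibitors, some of which protect the killer cell from its own proteases, had the highest median of the 6 pathway lists. Whether each of them inhibits a granzyme was not tested. Of 7 tested, 6 were called higher in allogeneic WT and 7 in allogeneic KO. Serpinb9b went from 0.251 ± 0.104 to 15.2 ± 4.10 CPM in WT, Serpinb9 rose by 2.98 ± 0.23 on the log2 scale, Serpinb6b by 3.36 ± 0.23 and Serpina3g by 2.60 ± 0.23 (adjusted p of 4.22e-06 or less). The list's median log2 fold change was 2.98 in WT against -0.03 for all genes, and Serpinb1a was the serpin not called in WT (0.83).

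Of 18 genes for the granule matrix and for sorting and processing of its proteases, 11 rose in allogeneic WT and 11 in allogeneic KO, with list medians of 0.67 and 0.74. Without allogeneic WT replicate 1 the WT count was 7. Ctsc, which encodes the protease that removes the propeptide of granzymes, rose by 1.12 ± 0.14 in WT and 1.33 ± 0.14 in KO. Gnptab, which makes the mannose phosphate tag for lysosomal sorting, rose by 1.33 ± 0.12 and 1.15 ± 0.12, and the receptor gene Igf2r by 1.09 ± 0.14 and 1.06 ± 0.14. Srgn, whose proteoglycan holds granzymes in the granule, rose by 1.57 and 1.23. Ctsh was the single gene of this list called lower (-1.68 in WT), and lost its call without replicate 2 or 3 of either WT group (adjusted p of 0.108 to 0.139). All these called changes were smaller than those of Gzma, Gzmb and Prf1.

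Granule docking, priming and fusion genes gave 11 higher and 1 lower of 24 in WT and 9 higher and 1 lower in KO, with medians of 0.42 and 0.35. The 9 in KO became 14, 4 and 5 without syngeneic KO replicates 1, 2 and 3. Rab27a, the small GTPase that brings granules to the membrane, rose by 1.82 ± 0.16 in WT, its partners Sytl2 and Sytl3 by 1.62 ± 0.11 and 1.70 ± 0.12, and the syntaxin gene Stx11 by 1.49 ± 0.15. The lower gene was Lyst in WT (-0.73) and Stx4a in KO (-0.44). Among 18 substrates of granzymes A and B, 6 rose and 1 fell in both genotypes, with medians of 0.16 and 0.15, and the 6 in KO became 3 without syngeneic KO replicate 2 and 1 with the 2 KO groups only and a replicate block. These 7 calls are 38.9% of the list, beside 32.3% of all tested genes in WT and 24.4% in KO. Trex1, which encodes a DNA exonuclease, rose by 0.99 ± 0.21 in WT and 0.68 ± 0.21 in KO. The KO call of Trex1 was lost without syngeneic KO replicate 2 or 3 or allogeneic KO replicate 2 (adjusted p of 0.0856 to 0.124). Apex1 fell by 0.80 ± 0.24 in WT, where its adjusted p of 0.0235 became 0.0528 to 0.0914 without syngeneic WT replicate 1 or 3 or allogeneic WT replicate 2 or 3.

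Other killing routes of T cells were split. Fasl, the ligand of the death receptor Fas, rose by 2.08 ± 0.20 in WT and 2.09 ± 0.20 in KO, and Ifng by 2.02 ± 0.41 and 1.65 ± 0.40 (adjusted p = 0.0658 in KO when only the 2 KO groups were fitted). Lta, which encodes lymphotoxin, fell by 1.92 ± 0.21 and 2.42 ± 0.21. Tnf fell by 1.51 ± 0.33 in KO, and in WT its value was -0.82 ± 0.32 (adjusted p = 0.0719). In WT, Tnf was called lower by DESeq2 (adjusted p = 0.0330) and by edgeR with total-count scaling (adjusted p = 0.0299). EdgeR also called it with only the 2 WT groups, without and with a replicate block (adjusted p = 0.00167 and 0.00634). In all, 3 of 6 genes were higher and 1 lower in WT, and 2 higher and 2 lower in KO. Over all settings the lower count in WT ran from 1 to 3.

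Of 20 regulators known for granzyme or perforin genes, 13 rose and 3 fell in WT, and 10 rose and 3 fell in KO. Prdm1, which encodes Blimp-1, rose by 2.82 ± 0.18 in WT, Bhlhe40 by 2.68 ± 0.16, Id2 by 2.57 ± 0.14 and the interleukin-12 receptor gene Il12rb2 by 2.80 ± 0.20. Tbx21, which encodes T-bet, rose by 1.54 in WT and 1.16 in KO, and Eomes, its T-box relative, fell (-1.26 and -1.14). Tcf7 and Lef1, transcription factors of naive and memory T cells, were the other 2 that fell (-1.87 and -1.09 in WT). Among 3 tested mast cell type proteases of the chromosome 14 locus, Cma1 was called higher, at 0.311 ± 0.201 CPM in allogeneic WT, and of the neighbours of Gzmm, neither Elane nor Prtn3 was called by edgeR or DESeq2 (0 at an unadjusted p under 0.05).

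**Figure D4:**
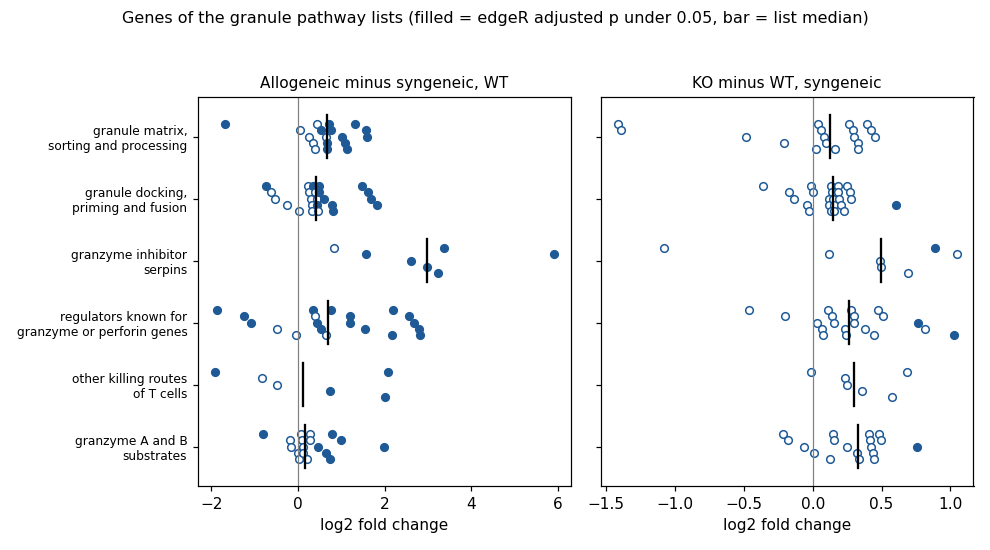
Log2 fold changes of single genes in the 6 granule pathway lists, for allogeneic minus syngeneic WT (left) and syngeneic KO minus WT (right), with filled points for an edgeR adjusted p under 0.05 and bars at list medians. The serpins lie furthest right in the left panel, with a median of 2.98, and 5 points are filled in the right panel.

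In libraries labelled syngeneic by transplant type, KO was set against WT to ask what went with genotype, from which donor sex cannot be told apart. The label for cell type names the allogeneic recipient strain for these KO libraries. If that label holds, recipient strain cannot be told apart from genotype here either. The KO against WT comparison shares the syngeneic WT libraries with the comparison above. Gzmk was the member called, at 27.8, 22.4 and 13.8 CPM in KO against 6.43, 4.43 and 5.49 in WT, with no overlap (13.2% of all tested genes were higher in KO with no overlap). The log2 fold change was 1.97 ± 0.29 (adjusted p = 0.00285), or 3.91-fold, and ranked 111th from the top. This was 1 of 7 tested members, where 3.37% of all tested genes were called (0.743% higher and 2.63% lower). Gzmk was called in all 14 alternative settings, at adjusted p of 1.30e-09 to 0.0220. Without syngeneic KO replicate 1, which stood apart, it was 1.70 ± 0.29 (adjusted p = 0.0125). Gzmk stayed below its allogeneic WT level of 76.6 ± 17.8 CPM.

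Gzmb was at 177 ± 64.6 CPM in syngeneic KO against 87.5 ± 21.9 in WT, and its 3 KO libraries were above the 3 WT ones by a margin of 112 against 111 CPM at the closest. The difference, 1.02 ± 0.30 (adjusted p = 0.114), did not pass, and it passed without syngeneic KO replicate 3 (1.26, adjusted p = 0.0349) and by DESeq2 (0.99, adjusted p = 0.0209). With replicate numbers as a block among these 6 libraries, the adjusted p of Gzmb was 0.402 and that of Gzmk 0.000572, and 1287 of all tested genes were called in place of 622. The other 5 tested members did not pass either, at 0.41 ± 0.32 for Gzma, 0.31 ± 0.18 for Prf1, 0.34 ± 0.20 for Gzmm, 0.51 ± 0.63 for Gzmc and 1.99 ± 1.57 for Gzmf (adjusted p of 0.460 to 0.739). All 7 values were above 0, with a median of 0.51 against 0.06 over all genes.

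As a share of the granzyme level per kb, Gzmk was 7.70 ± 1.60% in syngeneic KO and 3.54 ± 0.710% in WT (exact permutation p = 0.1, the smallest possible). Relative to Cd8a counts, Gzmk went from 0.00999 ± 0.000553 to 0.0327 ± 0.00547 counts per count. Cd8a itself was at 644 ± 142 CPM in KO against 545 ± 95.9 in WT and was not called. Esm1, inside the GENCODE span of Gzmk, also rose, by 1.62 ± 0.26 (adjusted p = 0.00384). The other flanking genes were not called.

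Markers of other cells differed between the 2 syngeneic groups. All 7 red cell precursor markers were called lower in KO, with summed levels of 1580 to 3278 CPM in WT and 12.4 to 50.9 in KO. Of 10 neutrophil markers 1 was called lower (420 to 1286 CPM in WT, 32.8 to 464 in KO), and of 10 monocyte, macrophage and dendritic cell markers 6 were (57.6 to 184 CPM and 14.8 to 50.1). None of 10 NK and NKT markers was called by edgeR (4 at an unadjusted p under 0.05, 1 by DESeq2), and their sum was 639 to 763 CPM in WT and 759 to 814 in KO, with Ncr1 at 0.594 ± 0.272 and 0.176 ± 0.0894. No red cell precursor marker was at 0 in a whole group. The part of these cells in the Gzmk result was not tested.

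In the fixed lists, 5 of 98 tested genes were called higher in syngeneic KO and 0 lower, and 2 higher without any of the 3 WT libraries or KO replicate 1 or 2. With replicate numbers as a block among these 6 libraries, 8 were higher and 3 lower, the lower ones being Ctsh (-1.49, adjusted p = 0.00240), Cd63 (-1.63, adjusted p = 0.0289) and Serpinb1a (-1.11, adjusted p = 0.00316). Among the 5 called higher without the block were Prdm1 (1.03 ± 0.17, adjusted p = 0.00536) and the transcription factor gene Irf4 (0.76 ± 0.12, adjusted p = 0.00299). Stx11 (0.61 ± 0.14, adjusted p = 0.0360) and Serpina3g (0.89 ± 0.22, adjusted p = 0.0487) were also among the 5. Prdm1 was at 19.4 ± 3.79 CPM against 9.49 ± 1.52 in WT, and lost its call when libraries were scaled by total counts only (adjusted p = 0.0689). Stx11 lost it in 10 of 14 settings and Serpina3g in 11, at adjusted p of up to 0.316 and 0.168. For Stx11 these included leaving out any 1 of the 6 libraries, and for Serpina3g any but KO replicate 3.

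After allogeneic transplantation, the same question of KO against WT gave no call among the members. Gzmk was at 124 ± 40.7 CPM in KO and 76.6 ± 17.8 in WT (log2 fold change 0.70 ± 0.28), and Prf1 at 352 ± 80.6 and 264 ± 23.6 (0.41 ± 0.18). Gzmb was at 1964 ± 755 and 1428 ± 88.5 CPM (0.46 ± 0.30), Gzma at 1412 ± 658 and 1136 ± 223 (0.31 ± 0.32) and Gzmm at 11.2 ± 2.65 and 10.1 ± 0.181 (0.15 ± 0.20). The groups overlapped for each of these 5. EdgeR called 0 of 7 members (adjusted p = 0.963 for each, 2 at an unadjusted p under 0.05) and DESeq2 called 0, where edgeR called 0.0542% of all tested genes. Gzmc and Gzmf were at 0.93 ± 0.56 and 0.92 ± 0.72.

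Allogeneic KO replicate 2 had the highest value of its group for Gzma, Gzmb, Gzmf, Gzmk, Gzmm and Prf1, and its summed granzyme level was 4248 CPM per kb against 2477 and 1952 in the other 2. Without it, the KO difference was -0.15 for Gzma and -0.076 for Gzmm. EdgeR and DESeq2 also called 0 of the 98 tested list genes in this comparison (3 at an unadjusted p under 0.05).

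Whether the KO difference depended on the type of transplant was tested as an interaction. No member was called by edgeR (1 of 7 at an unadjusted p under 0.05) or by DESeq2, where edgeR called 0.477% of all tested genes. Gzmk had the lowest p, with a KO difference that was smaller after allogeneic transplantation by 1.27 ± 0.40 on the log2 scale (value -1.27, edgeR unadjusted p = 0.00739, adjusted p = 0.342), so its call in syngeneic and not in allogeneic libraries was not shown to be a difference between them. For Gzmb the value was -0.56 ± 0.43 and for Prf1 0.10 ± 0.26. In the summed granzyme level, KO was 1.48-fold over WT within transplant type (exact permutation p = 0.05, adjusted p = 0.169), and the share of Gzmk was 2.44 percentage points higher (exact permutation p = 0.01, adjusted p = 0.0675). Neither passed.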

How the data were processed

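The authors deposited a table of expected counts per gene. Tools named in the submitters' processing notes are Bowtie2 2.2.1, TopHat2 2.0.13, Cuffdiff 2.2.1 and Cufflinks, with the build GRCm38. Which of them made the counts, and whether strand was used, is not given in the sources used here. Of the values in a library, 94.5 to 95.0% were exactly whole (tolerance 0). They were rounded. The labels describe 18 samples, and 12 columns match by name. Another 6 columns match none and were not used, and the naive samples were not analysed here.

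One model was fitted with edgeR 4.0.16 (R 4.3.3, limma 3.58.1) to the 12 libraries, with a mean per group and TMM scaling. The filterByExpr function (count minimum 10) kept 18447 genes, and the robust quasi-likelihood fit had 8 residual degrees of freedom. A gene was called at a two-sided p under 0.05 after Benjamini-Hochberg adjustment across the tested genes. SE is the log2 fold change over the root of F. The fit was also run on simulated counts, with the same spread set for every gene. Real libraries differ from that setting, so the run does not vouch for the calls, and its outcome is not reported here. Composition used exact permutation of libraries. Exon lengths and positions came from GENCODE M21, and windows from RefSeq.

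Named were all 9 members, the flanking genes, the 3 most alike genes per tested member, and up to 4 called genes per list. Other list genes called in a fit (Srgn, Ctsh, Serpinb1a, Lyst, Stx4a, Tbx21, Eomes, Tcf7, Lef1, Irf4, Cd63) were named after their values were seen, and some list genes are counted in their lists but not reported here singly. The members and lists were chosen with earlier results of these data known. Alternatives were DESeq2 1.42.0, other scalings, no filter, no ribosomal RNA genes, only the libraries compared, the replicate block, and each library left out. In their deviations from the group means, same-numbered syngeneic WT and KO libraries had r of 0.545, 0.17 and 0.335. Differently numbered ones had r of -0.501 to 0.363. These values do not settle whether the numbers pair the libraries, and the labels do not state it. The main fit had no block, and the block was used as an alternative only.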

Additional observations from a re-analysis of the deposited data

How the results depend on the processing

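Calls of members kept their side of the threshold under all settings tried except for Gzmb in syngeneic KO against WT, where 2 members were called without syngeneic KO replicate 3 and 2 by DESeq2 (leave-one-out range 1 to 2). Counts over all genes moved more. In allogeneic against syngeneic KO, 4500 became 2669 with the 2 groups only and 2266 with the replicate block added. In syngeneic KO against WT, 622 became 349 with the 2 groups only, 1287 with their replicate block (chosen after seeing the data), 1018 by DESeq2 and 260 to 742 without 1 library. In allogeneic KO against WT, 10 became 6 with the 2 groups only, 77 by DESeq2 and 3 to 15 without 1 library. In the interaction, 88 became 293 by DESeq2 and 28 to 242 without 1 library. The causes were not tested. With the replicate block over all libraries, Gzmk in syngeneic KO was at 1.92 (adjusted p = 0.00333) and Gzmb at 0.95 (adjusted p = 0.165), and the block changed no other call of a member.

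Among single members, 13 values changed sign, none of them called. Scaled by total counts, Gzmm in allogeneic KO against WT was -0.0099. Without 1 library the interaction ran from -0.52 to 0.25 for Gzma, from -0.067 to 0.26 for Prf1, from -0.38 to 0.090 for Gzmm and from -1.61 to 0.16 for Gzmf. In allogeneic KO against WT the ranges were -0.15 to 0.52 for Gzma and -0.076 to 0.26 for Gzmm. Total-count scaling moved the median of all genes from 0.06 to -0.09 in syngeneic and from 0.03 to -0.11 in allogeneic KO against WT, and the share of higher calls in allogeneic KO against WT from 80 to 66.7% (of 10 and 9 genes). In syngeneic KO against WT it took the higher calls from 137 to 64 and the lower from 485 to 463, so their share went from 22.0 to 12.1%. Depth limits Gzmd, Gzme and Gzmf, at 0 to 8 counts per syngeneic group.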
